A study of Mus musculus with 42 samples.

Results

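The 9 genes Polk, Polh, Xpc, Ddb2, Rrm2b, Gadd45a, Gadd45b, Gadd45g and Ddias encode DNA repair factors, stress proteins and an enzyme subunit of nucleotide supply that are known to be inducible by DNA damage. They were taken by gene symbol: every probe set that the platform annotation gives to one of these symbols was used, which were 20 of 45101 probe sets. All 9 genes and all 20 probe sets passed the filter on low values (at least 3 of the 42 arrays with a signal over that array's median), so they are 9 of the 12363 genes tested. The deposited signals are linear intensities. Changes are differences of log2(signal + 16), irradiated minus untreated, and for weak signals this scale gives too small a change.

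The study measured expression on 42 arrays from 21 cultured mouse pre-B cell lines, 3 for each of 7 genotypes, and asked how each genotype answers radiation and how that answer compares with that of wild type (WT). The genotypes were WT, Atm-/- (the kinase that starts break signalling), Scid (mutant in Prkdc, which encodes the catalytic part of DNA-PK, a kinase of end joining), Mre11A/A (an allele of the nuclease that binds broken ends), 53bp1-/-, H2ax-/- and Mdc1-/- (each lacking a factor that gathers on chromatin around breaks). Every line, WT included, was derived from bone marrow of a mouse aged 3 to 5 weeks that carried the Em-Bcl2 transgene, which protects B cells from apoptosis, and was transformed with pMSCV-v-abl, a retrovirus with an oncogenic kinase. Each line gave 1 untreated (mock) array and 1 array 2 h after 1 Gy of gamma rays. Per the labels the arrays within a group are biological replicates, numbered 1, 3 and 4 in WT and 1 to 3 elsewhere. They do not say whether a line is a clone, so p-values measure the spread between these lines.

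Cells that meet damaged DNA can copy past it, cut it out or slow the cell cycle while they repair it. Translesion polymerases such as Polk and Polh insert bases opposite lesions that stall the replicative polymerases, Xpc and Ddb2 recognise distorted or ultraviolet-damaged DNA at the start of nucleotide excision repair, and Rrm2b supplies deoxynucleotides for repair outside S phase. Many of these genes are known targets of p53, the transcription factor that Atm activates after double-strand breaks, and developing B cells make and repair such breaks when they rearrange their immunoglobulin genes.

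The labelled cell type was borne out by its markers. The 8 pre-B markers named on the array, among them Vpreb1, Igll1, Cd79a and Ebf1, lay above the array median on all 42 arrays, with a summed signal of 54710 to 95554. Summed markers of other cells reached 1006 for myeloid, 274 for erythroid and 440 for stromal cells; T cell markers summed to 586 to 5504, nearly all of it Cd2, while Cd3e did not exceed 48.1. Signals of H2ax, Atm, Mdc1 and Mre11a were lower in all 6 arrays of their mutant than in any WT array, whereas those of Trp53bp1 and of Prkdc, which carries a point mutation in Scid, overlapped. Every array had a trimmed mean of 500, which is set by the processing. The irradiated arrays of WT line 4 and Atm-/- line 2 stood apart by their medians of 103 and 116, against 62.6 to 82.9 on the other 40. Arrays with the same genotype and number behaved as pairs, so each radiation response was tested without regard to the line (unpaired) and again with both arrays of a line paired.

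Of the 9 genes, Polk and Ddias rose after radiation, whereas Polh, Xpc, Ddb2, Rrm2b and Gadd45a were not called in any single genotype and had mean changes of -0.14 to 0.05 on the log2 scale. Averaged over the 7 genotypes, Polk rose by a log2 change of 1.34 ± 0.15 (SE, 21 lines, 95% interval 1.04 to 1.63), to 2.52 times its untreated level, and was higher in 20 of 21 lines (limma adjusted p = 1.45e-07). Ddias rose by 1.50 ± 0.16 (1.18 to 1.82), to 2.83 times, and was also higher in 20 of 21 lines (adjusted p = 5.56e-08). These 2 of 9 genes were called unpaired, where 3.04% of all genes were called. Paired, 5 of 9 were called, where 14.3% of all genes were: Polk, Ddias, Gadd45b and Gadd45g were higher (6.4% of all genes) and Polh was lower (7.87%). The median change over the 9 genes was 0.05, and that over all genes tested was -0.002. RNA was measured in bulk, so fewer responding cells and less RNA per cell cannot be told apart.

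Polk encodes polymerase kappa, which extends DNA past bulky adducts. In WT lines 1, 3 and 4 its signal was 543, 536 and 763 untreated and 1840, 1653 and 1206 after 1 Gy. In Atm-/- lines 1, 2 and 3 it was 325, 298 and 437 untreated and 479.8, 388 and 522 after 1 Gy. The WT arrays did not overlap between treatments, whereas the Atm-/- arrays did, and no irradiated Atm-/- array reached the lowest untreated WT array. On a weaker Polk probe set this last point did not hold. There the irradiated Atm-/- arrays read 128.4, 185.8 and 133.8, all above the lowest untreated WT array at 125.8. In Scid lines Polk signal was 611, 696 and 486 untreated and 2531, 1566 and 1633 after 1 Gy. In Mre11A/A lines it was 597, 853 and 1013 untreated and 1442, 1820 and 2226 after 1 Gy. In 53bp1-/- lines it was 696, 768 and 667 untreated and 2322, 2531 and 2554 after 1 Gy. In none of these 3 genotypes did an untreated array reach an irradiated one. In H2ax-/- lines Polk signal was 836, 454 and 780 untreated and 2817, 437 and 2763 after 1 Gy. In Mdc1-/- lines it was 876, 614 and 952 untreated and 3186, 2501 and 3683 after 1 Gy. The highest irradiated signals were those of Mdc1-/- lines 1 and 3, and H2ax-/- line 2 was the single line without a higher irradiated signal.

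Ddias encodes an anti-apoptotic protein whose name stands for DNA damage-induced apoptosis suppressor. In WT lines its signal was 1113, 1856 and 1194 untreated and 4740, 5150 and 2632 after 1 Gy. In Atm-/- lines it was 899, 857 and 907 untreated and 1302, 679 and 1494 after 1 Gy. Again the WT arrays were apart and the Atm-/- arrays overlapped, with Atm-/- line 2 lower after radiation. In Scid lines Ddias signal was 956, 803 and 761 untreated and 3845, 3549 and 3530 after 1 Gy. In Mre11A/A lines it was 919.5, 836 and 1201 untreated and 1802, 2378 and 2711 after 1 Gy. In 53bp1-/- lines it was 557, 945 and 823 untreated and 2533, 2845 and 3762 after 1 Gy. All 3 genotypes were without overlap, and the 3 irradiated Scid arrays lay close together. In H2ax-/- lines Ddias signal was 1066, 522 and 923 untreated and 4035, 625 and 4195 after 1 Gy. In Mdc1-/- lines it was 927, 808 and 1075 untreated and 3778, 3462 and 3520 after 1 Gy. Line 2 of H2ax-/- was again apart from both other lines of its genotype. All irradiated arrays lay above all untreated ones for 2 of 9 genes, Polk and Ddias, in Scid, Mre11A/A and 53bp1-/- lines, for 3 in WT lines (also Gadd45g) and for 3 in Mdc1-/- lines (also Gadd45b). In H2ax-/- lines Gadd45b and Gadd45g were separated so, and in Atm-/- lines 0 of 9 genes were. The share of all genes with such separation was 5.1% in WT, 3.96% in Scid, 2.98% in Mre11A/A, 4.94% in 53bp1-/- and 7.21% in Mdc1-/- lines, and 3.58% in Atm-/- and 4.27% in H2ax-/- lines.

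In the order of mean irradiated signals, Polk was 3123 ± 593 (SD, n = 3) in Mdc1-/-, 2469 ± 128 in 53bp1-/-, 2005 ± 1359 in H2ax-/-, 1910 ± 539 in Scid, 1830 ± 392 in Mre11A/A, 1567 ± 326 in WT and 463 ± 68.7 in Atm-/- lines. WT and Atm-/- were the 1 pair of neighbours without overlap, but irradiated H2ax-/- line 2 (437) lay within the Atm-/- range (388 to 522). Untreated, Polk ranged from 353 ± 73.5 in Atm-/- to 821 ± 209.9 in Mre11A/A lines, and Atm-/- and Scid were the 1 pair of neighbours apart (F test adjusted p = 0.221). For irradiated Ddias the order was WT (4174 ± 1351), Scid (3641 ± 177), Mdc1-/- (3587 ± 168), 53bp1-/- (3047 ± 639), H2ax-/- (2952 ± 2016), Mre11A/A (2297 ± 460) and Atm-/- (1158 ± 426). Here only Mre11A/A and Atm-/- were neighbours without overlap, but irradiated H2ax-/- line 2 (625) lay below all irradiated Atm-/- arrays (679 to 1494). The untreated means, from 775 ± 199 in 53bp1-/- to 1387 ± 408 in WT lines, were not called (F test adjusted p = 0.692). Irradiated Polh, Gadd45b and Gadd45g each had 1 pair of neighbours without overlap as well. The share of all genes with such a gap between neighbours was not computed.

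**Figure D1:**
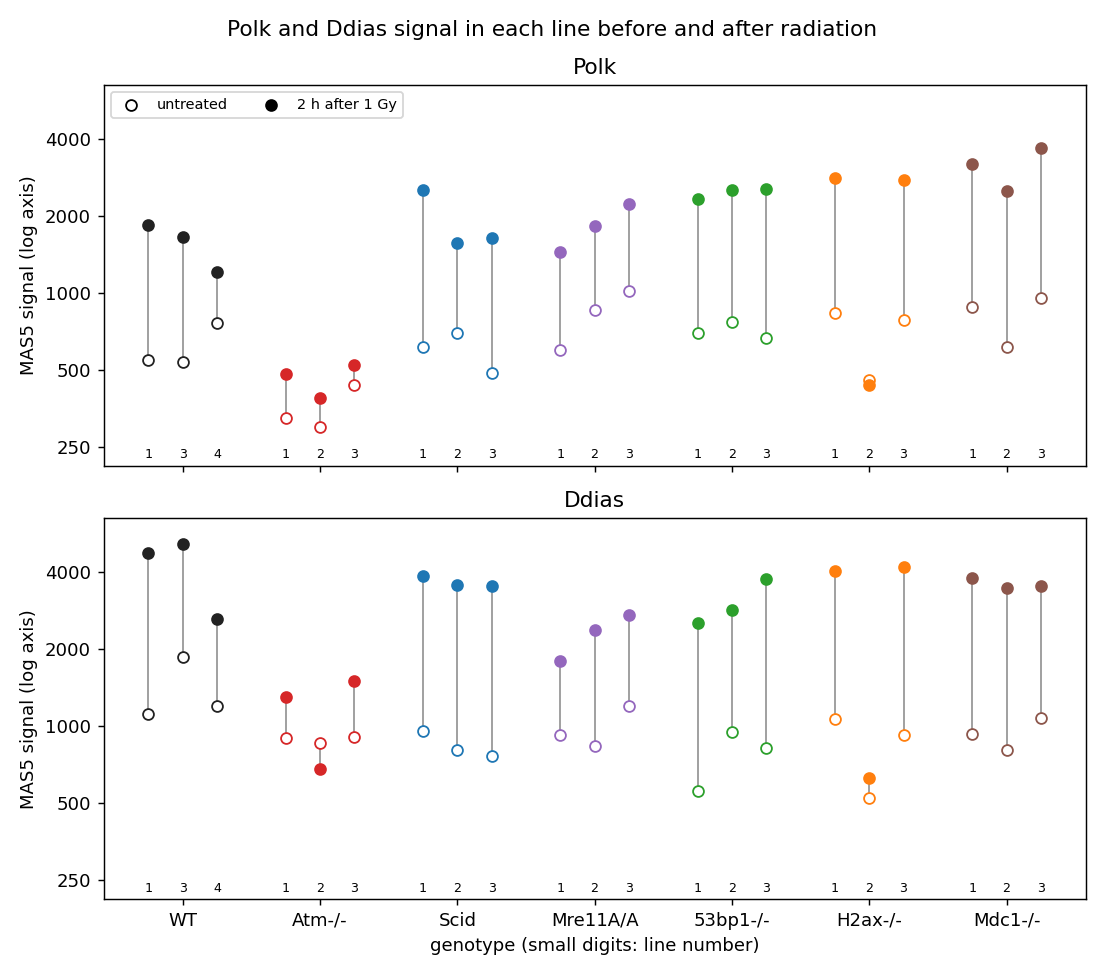
MAS5 signal (log axis) of Polk and Ddias in each of 21 lines, with untreated arrays as open circles, arrays 2 h after 1 Gy as filled circles, and a grey line joining both arrays of a line. Within each panel the circles lie far apart in most lines, and closer together in the 3 Atm-/- lines and in H2ax-/- line 2.

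Per genotype, Polk changed by 1.33 in WT, 1.63 in Scid, 1.15 in Mre11A/A, 1.78 in 53bp1-/-, 1.16 in H2ax-/-, 1.93 in Mdc1-/- and 0.38 in Atm-/- lines (log2, SE 0.386 each, n = 3). Unpaired, Polk was called in Mdc1-/- lines (adjusted p = 0.00811). Paired, it was called in 5 genotypes, with adjusted p = 0.0011 in WT, 0.00014 in Scid, 5.74e-05 in 53bp1-/-, 0.00529 in H2ax-/- and 6.87e-06 in Mdc1-/- lines. In Atm-/- lines, where Polk was higher in 3 of 3 lines, it was not called (adjusted p = 0.437 paired).

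Ddias changed by 1.56 in WT, 2.10 in Scid, 1.20 in Mre11A/A, 1.97 in 53bp1-/-, 1.44 in H2ax-/-, 1.93 in Mdc1-/- and 0.30 in Atm-/- lines (log2, SE 0.41 each, n = 3). Unpaired, Ddias was called in Scid (adjusted p = 0.0288) and Mdc1-/- lines (adjusted p = 0.0136). The Scid call was lost without any 1 of the 6 Scid arrays. In Mdc1-/- lines the unpaired calls of both genes were lost without untreated line 2 or irradiated line 3, and that of Ddias also without either array of line 1. Paired, Ddias was called in the same 5 genotypes as Polk, with adjusted p from 8.57e-06 in Scid to 0.00113 in H2ax-/- lines. In Mre11A/A lines both genes were higher in 3 of 3 lines without a call at this threshold (paired adjusted p = 0.0607 for Polk and 0.0604 for Ddias). Both passed there once the lines of the 2 arrays of high median were left out.

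Counted over the 9 genes with limma, WT lines had 0 calls unpaired (0.0971% of all genes; 3 of the 9 at an unadjusted p under 0.05) and 3 paired (3.76%), which were Polk, Ddias and Gadd45g. Atm-/- lines had 0 calls unpaired (0.00809%; 0 of 9 unadjusted) and 0 paired (1.33%; 1 of 9 unadjusted, Gadd45g). Mre11A/A lines had 0 unpaired and 0 paired (0% and 0.0324% of all genes; 2 of 9 unadjusted in both). These shares are all small, so a count of 0 among 9 genes says little where few genes of the array were called. Scid lines had 1 call unpaired (0.0728%) and 2 paired (2.69%), and Mdc1-/- lines 2 unpaired (0.631%) and 2 paired (5.72%). The 53bp1-/- lines had 0 unpaired (0.0243%; 2 of 9 unadjusted) and 2 paired (1.94%), and H2ax-/- lines 0 unpaired (0.089%; 2 of 9 unadjusted) and 2 paired (1.97%).

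Line 2 of H2ax-/- decided how firmly Polk and Ddias were called in that genotype. Its Polk changed by -0.05 and its Ddias by 0.25, whereas lines 1 and 3 changed by 1.73 and 1.80 for Polk and by 1.90 and 2.17 for Ddias. Without line 1 or without line 3 neither gene was called paired in H2ax-/- lines (highest adjusted p = 0.218 for Polk and 0.0691 for Ddias), and without line 2 the lowest adjusted p were 3.81e-06 and 2.61e-06. Without the irradiated array of line 2, both genes were also called unpaired in WT and in H2ax-/- lines. Other p53 targets moved with them: 20 measured ones had a median change of 0.22 in line 2, against 1.11 and 1.01 in lines 1 and 3. Of these 20, 17 were still higher after radiation in line 2, against 18 and 19 in lines 1 and 3. Cdkn1a, the cell cycle inhibitor p21, went from 216 to 460 in line 2, from 2196 to 9697 in line 1 and from 1786 to 6912 in line 3. Its log2 change was 1.04 in line 2 and 2.13 and 1.94 in lines 1 and 3, against 0.47, 0.13 and 0.39 in Atm-/- lines 1, 2 and 3. Relb, an NF-kB subunit, went from 72.3 to 702 in line 2, from 54 to 669.5 in line 1 and from 55.7 to 571 in line 3, so it was higher after radiation in all 3 lines. Relb, Cdkn1a and this line were singled out after their values were seen, and what sets the line apart was not tested.

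**Figure D2:**
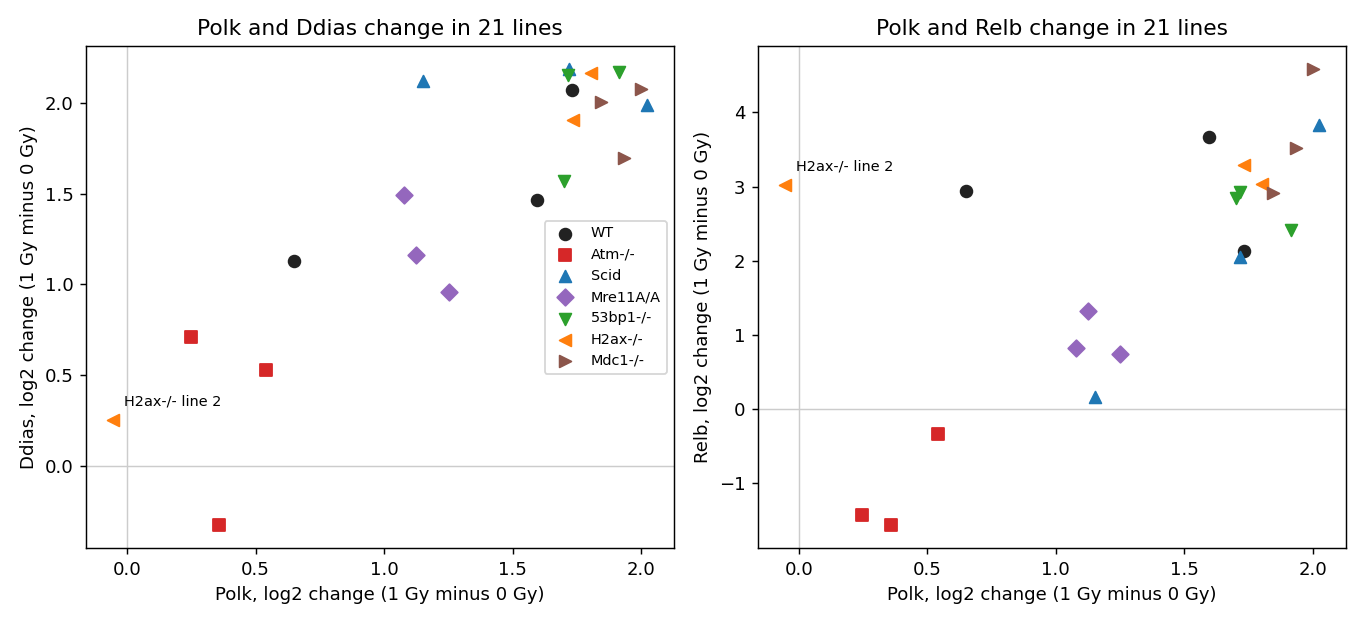
Log2 change of Polk (horizontal axes) against that of Ddias (left) and of Relb (right) in 21 lines, 1 point per line, with genotypes by colour and shape. H2ax-/- line 2 lies with the Atm-/- lines for Polk and Ddias, and at 3.02 with the other H2ax-/- lines for Relb.

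With arrays paired by line, the responses of Polk and Ddias were smaller in Atm-/- lines than in the others. Polk changed by 0.54, 0.36 and 0.25 and Ddias by 0.53, -0.33 and 0.71 in Atm-/- lines 1, 2 and 3, and for each gene 17 of the 18 lines of other genotypes exceeded the highest Atm-/- line (12 of 18 on the weaker Polk probe set, where the difference was not called). The contrast of Atm-/- with the other 6 genotypes was chosen with earlier results of these data known. The Atm-/- response minus the mean of the other 6 was -1.11 for Polk (paired 95% interval -1.62 to -0.60, paired adjusted p = 0.0111) and -1.40 for Ddias (-1.92 to -0.87, paired adjusted p = 0.00305). Gadd45g differed as well, by -0.95 (-1.36 to -0.54, paired adjusted p = 0.00767). These were 3 of 9 genes where 3.96% of all genes were called; unpaired, limma called 0 of 9 (0.0485% of all genes; 2 of 9 at an unadjusted p under 0.05), with adjusted p = 0.571 for Polk and 0.347 for Ddias. The Polk call was lost without Atm-/- line 3 (adjusted p = 0.0568) and the Gadd45g call without Atm-/- line 1 (adjusted p = 0.0771), and the Ddias call was kept without each line in turn.

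Against WT alone, the Atm-/- response was smaller by 1.25 for Ddias and 1.19 for Gadd45g on the log2 scale (paired adjusted p = 0.0489 and 0.0185), 2 of 9 genes where 2.07% of all genes were called. The Ddias call was lost in 18 of 24 alternatives, and the Gadd45g call without WT line 3 (adjusted p = 0.112) or Atm-/- line 1. Unpaired, 0 of 9 were called by limma (0.0243% of all genes; 1 of 9 unadjusted, Ddias). For the other 5 mutants against WT, 0 of 9 genes were called unpaired or paired, where 0% to 0.00809% of all genes were; of the 9, Polh reached an unadjusted p under 0.05 unpaired, and Polh and Gadd45g paired, all in Mre11A/A lines. The precision there was limited: the Mre11A/A response minus the WT response was -0.17 for Polk (paired 95% interval -0.84 to 0.49) and -0.35 for Ddias (-1.04 to 0.34). That of Mdc1-/- was 0.60 for Polk (-0.07 to 1.27). In the F test over all 7 responses, 1 of 9 genes was called paired, Ddias (adjusted p = 0.0362; 0.979% of all genes), a call lost in 13 of 24 alternatives, and 0 of 9 unpaired (0.0162%; 0 of 9 unadjusted).

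Both genes have another probe set on the array. That of Ddias had a mean signal of 1476 against 1965 and changed by 1.58 on average, with the same sign as the first in 20 of 21 lines (Pearson r = 0.921). On it too 17 of 18 other lines exceeded the highest Atm-/- line, and the Atm-/- response minus the mean of the other 6 was -1.28 (paired adjusted p over probe sets = 0.0125). Its untreated signals of 152, 214 and 592 in Atm-/- lines and 678, 441 and 955 in WT lines spread more than those of the first set.

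The weaker Polk set, with a mean signal of 301 against 1283, gave the same mean direction but not the same values per genotype. It changed by 1.12 on average (adjusted p over probe sets = 2.64e-06), with the same sign as the first in 20 of 21 lines (r = 0.81). The changes in Atm-/- lines 1, 2 and 3 were -0.39, 1.13 and 0.38, so that 12 of 18 other lines exceeded the highest Atm-/- line. In Mre11A/A lines it changed by 0.23, 0.72 and 0.77, with signals of 204, 255 and 283 untreated and 242, 431 and 493 after 1 Gy, which overlapped. The Atm-/- response minus the mean of the other 6 was -0.87 on this set and was not called (paired adjusted p over probe sets = 0.121), and neither was the H2ax-/- response (0.0949). The WT, Scid, 53bp1-/- and Mdc1-/- responses were called paired on it, with adjusted p from 0.000703 in Mdc1-/- to 0.0111 in Scid lines.

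Over the 21 lines, the changes of Polk and Ddias had a Pearson r of 0.872, and those of Polk with Polh, Xpc, Ddb2 and Rrm2b lay between -0.157 and -0.0894. Among the genes that are no members, Polk was most like Aaas, a nuclear pore protein (r = 0.952), Slc19a2, a thiamine transporter (0.947), and 9230114K14Rik (0.938). Ddias was most like Slc19a2 (0.934), the p53 target Ccng1 (0.93) and Gtse1, a p53-binding protein of G2 (0.928). All of these share the arrays and the contrast between Atm-/- and other lines, so the values are a description.

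Promoter windows of Polk, Ddias and Gadd45a are printed because Polk and Ddias carried the response and Gadd45a, a well-known p53 target, was not called. RefSeq windows of 250 bases before to 50 after the gene start (build GRCm38.p6) were given for 6 of the 9 genes, Polk, Polh, Gadd45a, Gadd45b, Gadd45g and Ddias, with 2 windows for Polk. They were searched for the 10-base p53 half-site consensus, which reads the same on both strands. It was found in 2 of the 7 windows (28.6%) and in 2745 of 32851 promoter windows of all genes (8.36%). Of the Polk windows, window 2 lies at the outermost start of the gene and window 1 at an internal start 23.4 kb further into it; the Ddias window lies at a start 0.7 kb inside the outermost one. Capitals mark the half-site, which lies 231 bases upstream of the internal Polk start and 40 bases upstream of the Gadd45a start. All 4 windows printed are on the minus strand, at chr13:96519138-96519437 and chr13:96542530-96542829 for Polk, chr7:92874198-92874497 for Ddias and chr6:67037358-67037657 for Gadd45a.
Polk window 1: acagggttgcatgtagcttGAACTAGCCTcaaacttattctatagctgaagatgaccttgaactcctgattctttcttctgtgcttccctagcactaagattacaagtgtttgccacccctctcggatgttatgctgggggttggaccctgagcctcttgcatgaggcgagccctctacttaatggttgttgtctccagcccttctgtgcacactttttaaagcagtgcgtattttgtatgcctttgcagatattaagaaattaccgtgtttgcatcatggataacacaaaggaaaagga
Polk window 2: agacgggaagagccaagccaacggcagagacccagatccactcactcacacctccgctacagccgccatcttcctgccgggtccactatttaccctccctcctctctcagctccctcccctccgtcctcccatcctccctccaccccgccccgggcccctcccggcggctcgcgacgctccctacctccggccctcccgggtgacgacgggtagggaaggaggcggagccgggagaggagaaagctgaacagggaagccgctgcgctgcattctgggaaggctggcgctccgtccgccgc
Ddias: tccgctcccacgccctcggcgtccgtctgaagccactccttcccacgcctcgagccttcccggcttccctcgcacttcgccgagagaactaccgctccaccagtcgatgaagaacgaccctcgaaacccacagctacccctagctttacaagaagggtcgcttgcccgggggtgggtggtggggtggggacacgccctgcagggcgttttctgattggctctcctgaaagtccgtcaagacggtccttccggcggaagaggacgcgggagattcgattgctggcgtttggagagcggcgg
Gadd45a: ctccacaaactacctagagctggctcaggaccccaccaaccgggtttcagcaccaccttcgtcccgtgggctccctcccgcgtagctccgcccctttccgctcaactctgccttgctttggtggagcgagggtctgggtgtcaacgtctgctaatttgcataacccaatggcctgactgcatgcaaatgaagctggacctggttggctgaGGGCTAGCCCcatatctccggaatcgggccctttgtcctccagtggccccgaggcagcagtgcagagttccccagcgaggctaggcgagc
Neither the window at the outermost Polk start nor the Ddias window held the half-site, and the Gadd45a window held it. A match is a description of these letters and not a binding site.

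Polh encodes polymerase eta, which copies accurately past ultraviolet-induced thymine dimers. Untreated Polh signal was 988, 1396 and 1316 in WT lines and 1153, 962 and 1186 in Scid lines. It was 745, 615 and 873 in Mre11A/A, 743, 661 and 794 in H2ax-/- and 709.9, 701 and 716 in Mdc1-/- lines, all below every WT array. The share of all genes placed so was 9.55% in Mre11A/A, 11.1% in H2ax-/- and 11.1% in Mdc1-/- lines. Polh was 674, 1049 and 719 in 53bp1-/- and 719, 749.5 and 1121 in Atm-/- lines, where 1 line of each reached the WT range. Against WT the log2 difference was -0.77 in Mdc1-/- (adjusted p = 0.00352), -0.73 in H2ax-/- (0.00781), -0.72 in Mre11A/A (0.0106) and -0.60 in 53bp1-/- lines (0.0363), each with an SE of 0.16. It was -0.52 in Atm-/- (0.249) and -0.15 in Scid lines (0.798), which were not called.

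Polh was the 1 gene of 9 called in each of those 4 comparisons, where 4.97% of all genes were called in Mdc1-/-, 4.08% in H2ax-/-, 2.42% in Mre11A/A and 2.93% in 53bp1-/- lines. In Atm-/- lines 0 of 9 were called by limma (0.0728%; 1 of 9 unadjusted, Polh). The Mre11A/A call was lost without untreated WT line 3 or 4 or Mre11A/A line 2, the H2ax-/- call without WT line 3 or H2ax-/- line 2, and the 53bp1-/- call without WT line 3 or 4 or 53bp1-/- line 1 or 3. The 4 genotypes with a Polh call are those with many genes apart from WT before radiation; the labels name no batch, and the part of culture or handling in the difference was not tested. A weaker Polh probe set with a mean signal of 120.2 gave a call in Mre11A/A lines alone (-1.96, adjusted p over probe sets = 0.00275), with untreated signals of 64.2, 47.6 and 3.53 against 191, 205 and 111 in WT lines. The other 2 Polh sets had means of 52.1 and 38.7, below the median of most arrays. No Polh call against WT remained when all its sets were averaged. The F test of untreated levels over 7 genotypes still called Polh then, as in every alternative (adjusted p up to 0.0252). After radiation Polh changed by -0.14 on average (-0.27 to -0.02), lower in 13 of 21 lines. The adjusted p was 0.317 unpaired and 0.0497 paired, and the paired call was lost in 15 of 24 alternatives. By genotype, Polh changed by -0.43 in WT and -0.33 in Scid lines, lower in 3 of 3 lines of each. It changed by 0.12 in Mre11A/A and by -0.13 to -0.06 in the remaining genotypes. Mean Polh signal after 1 Gy lay between 677 in H2ax-/- and 904 in WT lines.

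Xpc, Ddb2 and Rrm2b gave no call in any radiation response, unpaired or paired. Xpc, the lesion sensor of global nucleotide excision repair, had untreated signals from 294 to 1017 with a median of 622, and in WT lines it was 523, 712 and 718 untreated and 504, 419 and 623 after 1 Gy. Its mean change was -0.12 (95% interval -0.34 to 0.11), lower in 13 of 21 lines. Ddb2, which hands ultraviolet lesions to Xpc, was 372, 422 and 317 untreated and 324, 350.5 and 413 after 1 Gy in WT lines and changed by 0.05 on average (-0.08 to 0.18). Its second probe set changed by 0.05, close to the first, and its untreated signal was 555, 444 and 458 in H2ax-/- lines against 297, 305 and 335 in WT lines, with a call in the F test of untreated levels over probe sets (adjusted p = 0.0229) that the first set did not share (0.26 over genes).

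Rrm2b, the damage-responsive small subunit of ribonucleotide reductase, was 599, 715 and 714 untreated and 690.2, 580 and 668 after 1 Gy in WT lines. In Atm-/- lines it was 585, 765 and 718 untreated and 712, 798 and 794 after 1 Gy. The arrays overlapped between treatments in both genotypes, while in 53bp1-/- lines all irradiated arrays lay below all untreated ones, as for 3.61% of all genes, by -0.16 without a call. Its mean change was -0.06 (-0.18 to 0.06, adjusted p = 0.86), and its changes per line ranged from -0.35 to 0.28. The 3 weaker Rrm2b sets changed by -0.16, -0.12 and -0.30 on average, also without an increase. At 2 h after 1 Gy, these 95% intervals end at 0.06 for Rrm2b and 0.18 for Ddb2 on the log2 scale.

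The Gadd45 family encodes small stress proteins that bind cell cycle and kinase partners, and its 3 members are given in turn. Gadd45a, the classic p53 target of the family, had a mean change of -0.01 (95% interval -0.28 to 0.26, adjusted p = 0.993) and was higher in 11 of 21 lines. In WT lines its signal was 156, 194 and 156 untreated and 172, 155 and 102 after 1 Gy. In Mdc1-/- lines it was 337, 377 and 390.1 untreated and 307, 384 and 316 after 1 Gy. The Mdc1-/- arrays all lay above the WT arrays at both doses, and treated and untreated arrays overlapped in both genotypes. The share of all genes with every untreated Mdc1-/- array above every untreated WT array was 15.8%, and that for irradiated arrays was not computed. Untreated, Gadd45a was 1.06 ± 0.35 (log2, SE) higher in Mdc1-/- than in WT lines without passing the threshold (adjusted p = 0.0718), and it passed with the line as a random block or with only the arrays of both groups.

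Gadd45b, which is also known as an NF-kB target, was higher in the paired mean response. In WT lines its signal was 215, 215 and 160 untreated and 482, 941 and 56.4 after 1 Gy. In Scid lines it was 74.2, 322 and 183 untreated and 410.1, 495 and 318 after 1 Gy. In Mdc1-/- lines it was 260.2, 189.7 and 109 untreated and 613, 356 and 274 after 1 Gy. WT lines 1 and 3 were higher after radiation while line 4 was lower, and line 4 is the line whose irradiated array stands apart by its median. In Mre11A/A lines Gadd45b signal was 124, 163 and 144 untreated and 138, 95.2 and 96.4 after 1 Gy, lower after radiation in 2 of 3 lines. Its mean change was 0.54 ± 0.20 (0.13 to 0.96), higher in 17 of 21 lines, with adjusted p = 0.201 unpaired and 0.00959 paired. The weakest probe set had a mean signal of 57.8, and a second changed by 0.57 (adjusted p over probe sets = 0.0396 unpaired and 0.00106 paired). Both sets disagreed in WT, where the second read 352, 159.8 and 140.3 untreated and 227, 656 and 254 irradiated, lower in line 1 and higher in line 4.

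Gadd45g rose in the paired average over genotypes by 0.32 (0.17 to 0.46, adjusted p = 0.00209 paired and 0.602 unpaired), and was higher in 17 of 21 lines. In WT lines its signal was 228, 134 and 142 untreated and 308, 248 and 268 after 1 Gy. In Atm-/- lines it was 82.5, 255 and 137 untreated and 30.6, 177 and 146 after 1 Gy. In Scid lines it was 424, 1118 and 947 untreated and 852, 1422 and 1379 after 1 Gy. Every WT and every Scid line was higher after radiation, 2 of 3 Atm-/- lines were lower, and the Scid arrays lay above all WT arrays at both doses. The share of all genes with irradiated Scid arrays placed so was not computed. In WT lines the change of 0.69 was called paired (adjusted p = 0.0347), a call lost without line 1, 3 or 4 (up to 0.242). With all lines kept, it was also lost under quantile normalization. Over the lines, the change of Gadd45g was most like that of the vesicle transport gene Sec22b (r = 0.858) and the NF-kB targets Nfkbia (0.857) and Icam1 (0.843).

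**Figure D3:**
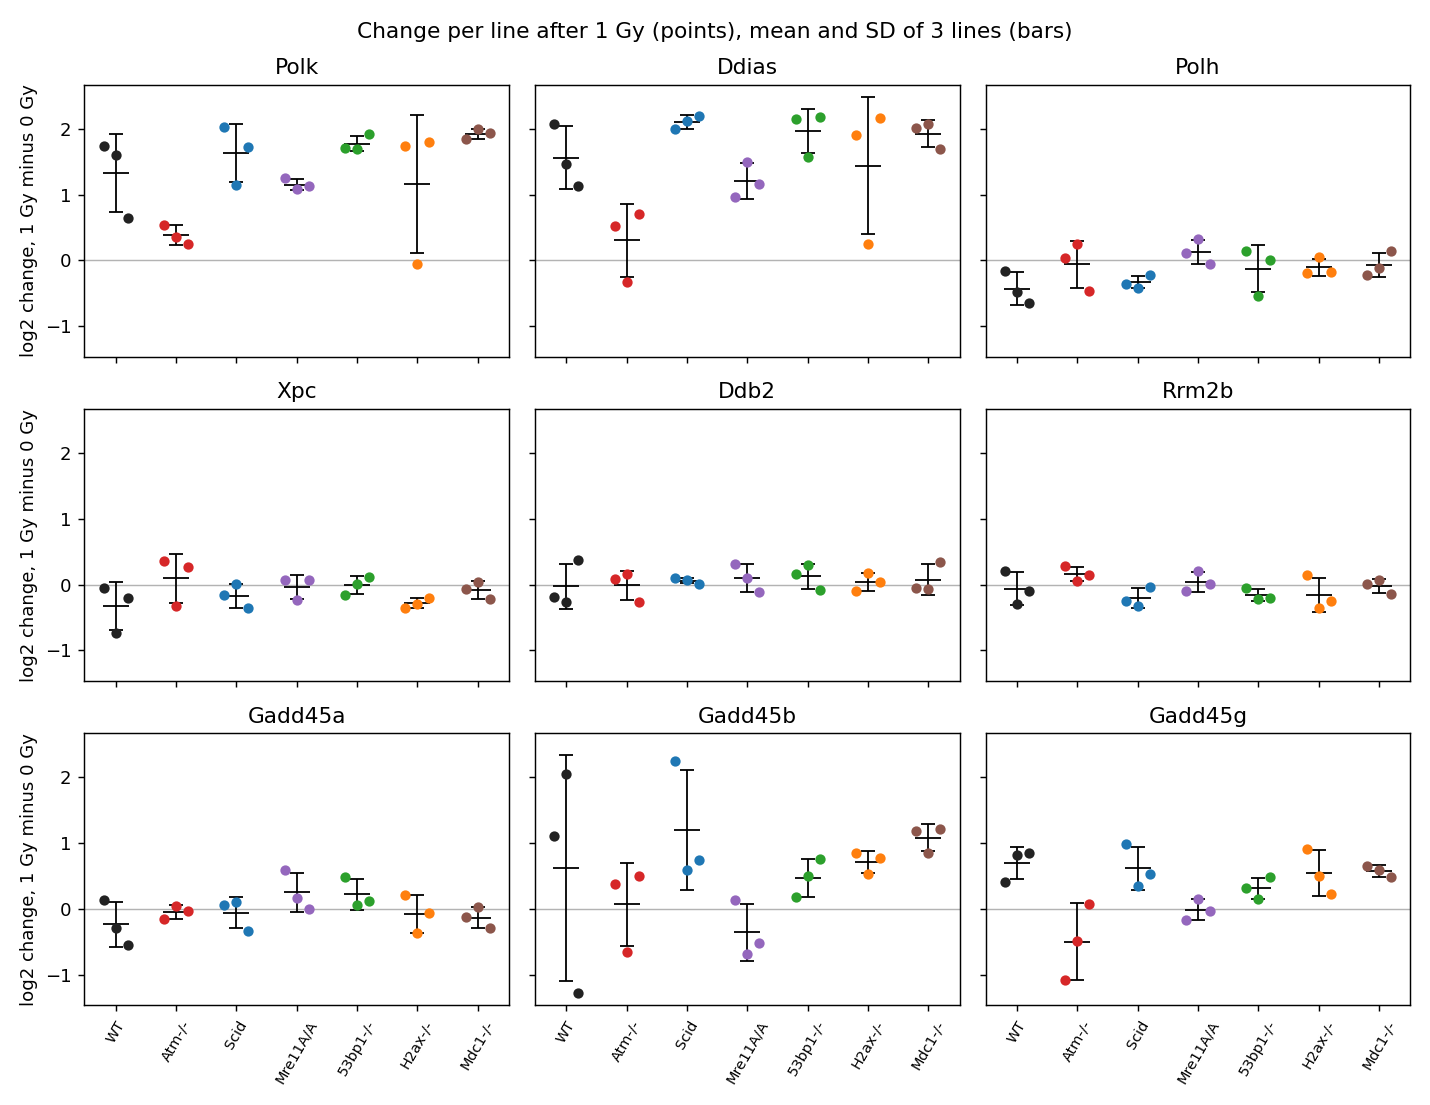
Log2 change (1 Gy minus 0 Gy) of each of the 9 genes by genotype, with 1 point per line and bars for the mean and SD of 3 lines. Polk and Ddias lie well above 0 outside Atm-/- lines, except in H2ax-/- line 2 (-0.05 and 0.25). Gadd45b and Gadd45g scatter above 0 in most genotypes, and the other 5 genes lie around 0.

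Untreated levels differed among genotypes for Gadd45g and Polh, and for no other of the 9 genes by the F test over 7 genotypes (adjusted p = 0.00403 for Gadd45g and 0.00214 for Polh). These were 2 of 9 genes where 15.9% of all genes were called. Untreated Gadd45g averaged 829.9 ± 361 (SD, n = 3) in Scid lines and 168 ± 52 in WT lines, a log2 difference of 2.13 ± 0.51 (SE, adjusted p = 0.0494; 1 of 9 genes called where 0.396% of all genes were). All untreated Scid arrays lay above all WT arrays, as for 8.72% of all genes. That pairwise call was lost in 7 of 12 other settings and without 29 of the 42 single arrays, among them each WT array, always in the same direction. The lowest untreated mean was 98.9 ± 37.2 in Mdc1-/- lines, and the order between was Mre11A/A (277 ± 181), 53bp1-/- (238 ± 73.7), H2ax-/- (179.5 ± 22.5), WT and Atm-/- (158 ± 88.3). Neighbours in this order overlapped in range, Scid and Mre11A/A included.

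**Figure D4:**
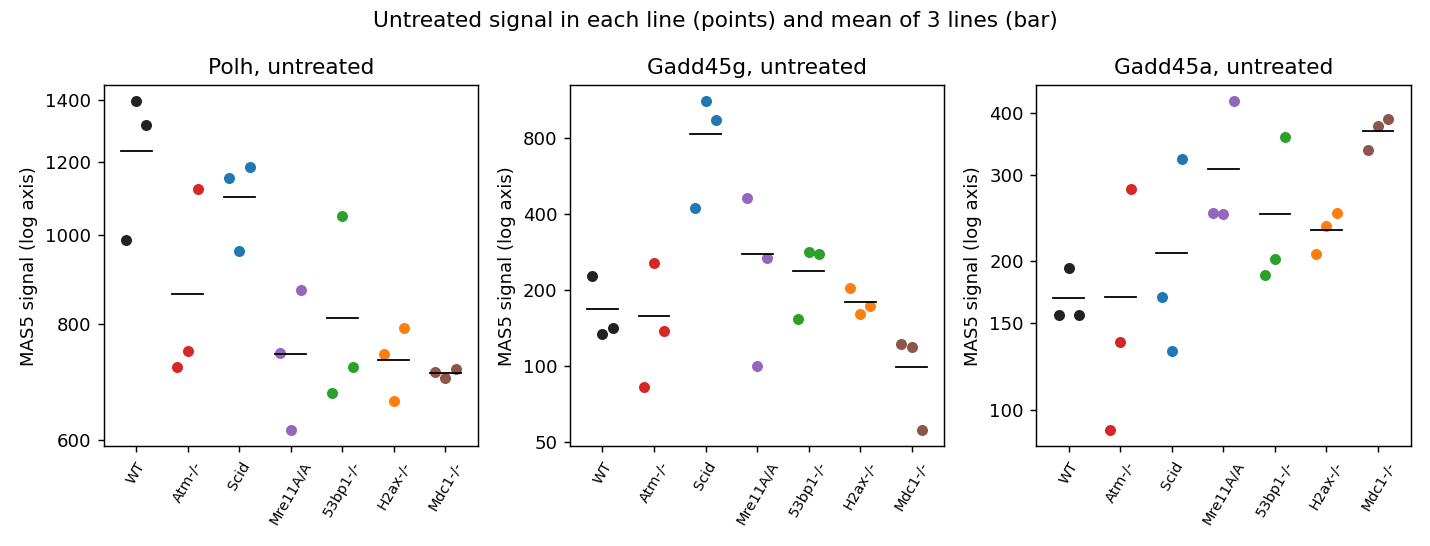
Untreated MAS5 signal (log axes) of Polh, Gadd45g and Gadd45a by genotype, with 1 point per line and a bar at the mean of 3 lines. Polh is highest in WT and Scid lines, Gadd45g in Scid lines, and the 3 Gadd45a values of Mdc1-/- lines (337 to 390.1) all lie above those of WT lines.

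In the mean response, 3.04% of all genes were called unpaired and 14.3% paired (6.4% higher and 7.87% lower), and the counts of related genes that are not members stand against these shares. Of 14 translesion synthesis genes, 1 rose in the unpaired mean response and 0 fell (2 and 4 of 14 paired), with a median change of -0.03. It was Rev1, the scaffold of translesion polymerases (0.38 ± 0.06, adjusted p = 4.4e-05, higher in 18 of 21 lines, -0.07 in Atm-/- lines). Of 26 measured nucleotide excision repair genes (28 listed), 1 rose and 0 fell (1 and 3 paired), with a median of -0.03. It was Ercc5, the nuclease that cuts on the 3′ side of a lesion, which rose by 1.06 ± 0.15 (adjusted p = 1.25e-05), was higher in 19 of 21 lines and changed by 0.08 in Atm-/- lines. Ercc5 acts later in the pathway than the lesion sensors Xpc and Ddb2, which were not called.

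Of 18 measured nucleotide supply genes (19 listed), 0 were called unpaired with limma (2 at an unadjusted p under 0.05), and 3 paired: Rrm2 (0.10) higher, and the kinases Dguok (-0.16) and Cmpk1 (-0.10) lower. Of 8 measured partners and regulators of Gadd45 proteins (10 listed), Cdkn1a (1.72 ± 0.31) and the transcription factor Foxo3 (0.70 ± 0.12) rose and 0 fell (2 and 2 paired). Of 20 measured other p53 targets (23 listed), 14 rose and 0 fell (17 and 0 paired), with a median of 0.91 against -0.002 over all genes, among them Cdkn1a of the previous list, Sesn2 (1.46), Mdm2 (1.06) and Pidd1 (0.94). Their median difference between Atm-/- and the other 6 responses was -0.996, and 13 of 20 were called smaller in Atm-/- lines when paired. Over all 12363 genes, 268 were called lower in that contrast when paired and 5 when unpaired. Polk and Ddias were thus called in the same unpaired response as 14 of these targets, while Xpc, Ddb2, Rrm2b and Gadd45a, which are known as p53 targets from other cells, were not called there.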

How the data were processed

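Total RNA was labelled by a one-cycle biotin protocol and hybridised to Affymetrix mouse arrays, per the labels' protocols. The deposited values are linear intensities; the submitters' processing notes name MAS5 without a version. Each gene was read from its kept probe set of highest mean (28260 probe sets kept, 12363 genes). Log2(signal + 16) was fitted by limma 3.58.1 in R 4.3.3 with 14 group means over 42 arrays (28 residual degrees of freedom) and a variance trend. Benjamini-Hochberg adjustment ran over genes within a comparison, and a call is an adjusted p under 0.05, two-sided.

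Deviations from group means correlated at 0.354 to 0.643 in the 21 same-numbered pairs within a genotype and at -0.0526 or less in the others. Deviations from a group mean cancel out, so positive values in the same-numbered pairs draw the others negative. The positive values were the ground for pairing arrays of a number as a line and refitting the responses with the line as a block. The code was tested on simulated data, and no pair of arrays was identical.

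Besides all members, the text names the 3 genes most correlated over lines with each member called paired in a genotype, and for each gene list up to 3 genes called in the mean response. Members and lists were chosen with earlier results of these data known. Alternatives changed the pseudocount, filter, normalization, probe set rule, variance model and block, or left out arrays. With 3 arrays per group, their number sets the precision.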

Additional observations from a re-analysis of the deposited data

Results flagged for a closer look

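Polk, Ddias and Gadd45g drew attention because their radiation responses differed between Atm-/- lines and the other genotypes when both arrays of a line were paired. The Atm-/- response minus the mean response of the other 6 genotypes was -1.11 for Polk, -1.40 for Ddias and -0.95 for Gadd45g on the log2 scale (limma adjusted p = 0.0111, 0.00305 and 0.00767). Against WT lines alone it was -1.25 for Ddias and -1.19 for Gadd45g (adjusted p = 0.0489 and 0.0185). On the weaker Polk probe set the first difference was -0.87 and was not called (0.121). None of these 5 differences passed unpaired, where the lowest adjusted p was 0.347, for Ddias against the other 6. The 2 contrasts share the Atm-/- and the WT arrays, so they are not separate evidence. That with the other 6 genotypes was chosen with earlier results of these data known.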

How the results depend on the processing

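Of 2105 recomputed values of single genes, 1933 kept their direction and their side of the threshold. A call was lost in 125 and gained in 47, and 0 turned direction. Only values called in the unpaired or the paired fit were recomputed. Most alternatives left out 1 array or 1 line, often from a group outside the comparison, where the estimate itself cannot change. Much of the 1933 and the 0 was thus set in advance. Of 1638 counts of called members, 1505 stayed within 1.5 times. The numbers pair the arrays, and with the replicate block (paired) the counts of called members became 3 in WT, 2 each in Scid, 53bp1-/- and H2ax-/- lines, 5 in the mean response, 3 for Atm-/- against the other 6, 2 for Atm-/- against WT and 1 in the F test of responses; it changed no other count by over 1.5 times. With the line as a random block they were 2 in WT, Scid, 53bp1-/- and H2ax-/-, 4 in the mean response and 2 for Atm-/- against the other 6; among untreated comparisons with WT they were 0 in 53bp1-/- and 2 in Mdc1-/-. With only the arrays compared, the count was 2 in the 53bp1-/- response and 2 in untreated Mdc1-/-, and 0 in untreated Scid, Mre11A/A, 53bp1-/- and H2ax-/-. Averaging probe sets gave 0 in untreated Scid, Mre11A/A, 53bp1-/-, H2ax-/- and Mdc1-/-. Untreated Scid also fell to 0 with a pseudocount of 1, no filter, quantile normalization, centring on the 75th percentile and no variance trend, and untreated 53bp1-/- to 0 without the filter; the cause was not tested. Of the alternatives chosen after seeing the data, the paired count in Mre11A/A lines became 2 without the lines of the 2 arrays of high median, and testing each probe set by itself gave paired counts of 1 for Atm-/- against WT and 0 for the F test of responses.

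Leaving out 1 array at a time, the unpaired counts ranged from 0 to 2 in WT, Scid, 53bp1-/-, H2ax-/- and Mdc1-/- responses and for Atm-/- against the other 6, from 0 to 1 in untreated Scid, Mre11A/A, 53bp1-/- and H2ax-/-, and from 1 to 2 in untreated Mdc1-/-. Leaving out 1 line at a time, paired counts ranged from 0 to 2 in Mre11A/A and H2ax-/- lines, from 0 to 4 for Atm-/- against WT and from 0 to 3 in the F test of responses. The mean responses of Polk and Ddias were called in all 54 unpaired and all 24 paired alternatives. Weak probe sets near the array median limit what can be said of them.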

Other observations

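Base excision and direct repair, pathways that are not represented among the 9 genes, were counted in the same mean response. Of 17 measured genes (19 listed), limma called 0 in the unpaired mean response (4 at an unadjusted p under 0.05), and paired it called 1 higher and 4 lower; over all genes 3.04% were called unpaired, and 6.4% higher and 7.87% lower paired. Ung, the glycosylase that removes uracil from DNA, had the smallest paired p of the list: it changed by -0.30 ± 0.09 (log2, SE), was lower in 20 of 21 lines and had an adjusted p of 7.41e-06 paired and 0.086 unpaired. Its change was -0.55 in WT, -0.59 in Mdc1-/- and -0.01 in Atm-/- lines. Neil1, a glycosylase for oxidised bases, changed by -0.12 and was lower in 15 of 21 lines (paired adjusted p = 0.00929). Alkbh2, which reverses alkylation damage, changed by -0.48 and was lower in 16 of 21 lines (paired adjusted p = 0.0101), at a low mean signal of 147. Among translesion genes the paired test also called Rad18, the ligase that marks stalled forks, higher at 0.12 and Usp1, which reverses that mark, lower at -0.12. All of these paired shifts were under 0.5 on the log2 scale, where Polk and Ddias changed by over 1.3.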
